A study of Mus musculus with 8 samples.

Results

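The nuclei described here are the progenitor-like nuclei of the lateral ganglionic eminence (LGE), a ventral region of the embryonic mouse forebrain, profiled for open chromatin with the single-nucleus assay for transposase-accessible chromatin (snATAC-seq). Wild-type (WT) mouse brain was dissected at E12.5 (embryonic age in days) into LGE, medial (MGE) and caudal (CGE) ganglionic eminences, with 2 samples each, and the labels do not say whether the samples of a region came from separate litters or how many embryos were pooled. Nuclei were released by douncing whole tissue, so no gate or marker enriched for progenitors. Cortical samples of the same series were not compared here. A nucleus entered the ranking if it held 5000 or more counts in the peaks called for its sample. For each such nucleus, A was the number of counts in peaks over the bodies or 2000 bp upstream of Hes1, Hes5, Sox2, Notch1, Nes and Vim, and B the number in peaks over Dlx5, Dlx6, Gad1, Gad2 and Slc32a1. Members were chosen by these counts alone: nuclei were ranked by the score (A + 1) / (A + B + 2) and the top 30% of each sample were taken. This gave 3147 members of 10490 LGE nuclei that passed the count minimum, 1762 of 5874 in LGE_1 and 1385 of 4616 in LGE_2, out of 39253 nuclei in the series. The same rule gave 2820 members in MGE (1826 and 994) and 2440 in CGE (1112 and 1328).

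Progenitors of the ganglionic eminences line the ventricle in the ventricular zone (VZ). Radial glia there express Nes, Vim and Sox2 and are held undifferentiated by Notch signals that switch on Hes1 and Hes5, whereas their daughters switch on Dlx genes, leave the VZ and acquire the GABA-synthesising enzymes encoded by Gad1 and Gad2. In LGE the homeodomain factor Gsx2 specifies VZ identity against the cortical programme above and the Nkx2-1 programme of MGE below, with Pax6 and Meis2 active in its dorsal part. The neurons that LGE produces include the projection neurons of the striatum and interneurons of the olfactory bulb. An accessible peak marks chromatin that the transposase could enter and is not a measure of RNA.

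Regions that differed strongly between LGE and MGE members are shown first as sequence, since the comparison turns on them and their letters are counted below. They were ranked among called regions whose groups did not overlap, with 200 bp or more of peak in each LGE and MGE sample and mean covered lengths within 1.5-fold between the groups (2577 higher and 1373 lower regions). Larger folds occurred where covered lengths differed more, as in an Ebf1 intron (-4.12) and a Prox1 intron (-4.01). Each window is the central 300 bp of a merged peak region, given 5′ to 3′ on the plus strand of GRCm38 (mm10), with TAATTA (the core recognised by many homeodomain factors), CACTTG or its complement CAAGTG, and CAGCTG (E-box letters bound by basic helix-loop-helix factors) in capitals. These were the 3 with the largest fold towards LGE under those conditions:
chr13:43930463-43930762, intergenic, nearest start site Cd83: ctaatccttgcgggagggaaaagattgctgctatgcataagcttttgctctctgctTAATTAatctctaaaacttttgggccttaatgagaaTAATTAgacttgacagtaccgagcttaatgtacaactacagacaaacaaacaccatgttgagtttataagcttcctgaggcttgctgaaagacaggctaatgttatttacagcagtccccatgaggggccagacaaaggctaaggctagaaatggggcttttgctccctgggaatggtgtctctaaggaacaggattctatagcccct
chr6:127319219-127319518, intergenic, nearest start site Parp11: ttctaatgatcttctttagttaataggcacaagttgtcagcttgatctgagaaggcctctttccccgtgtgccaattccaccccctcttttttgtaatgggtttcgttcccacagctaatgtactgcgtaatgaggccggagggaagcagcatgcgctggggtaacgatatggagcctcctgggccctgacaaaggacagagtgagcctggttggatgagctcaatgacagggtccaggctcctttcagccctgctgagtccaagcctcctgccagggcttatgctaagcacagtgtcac
chr16:52386970-52387269, Alcam intron: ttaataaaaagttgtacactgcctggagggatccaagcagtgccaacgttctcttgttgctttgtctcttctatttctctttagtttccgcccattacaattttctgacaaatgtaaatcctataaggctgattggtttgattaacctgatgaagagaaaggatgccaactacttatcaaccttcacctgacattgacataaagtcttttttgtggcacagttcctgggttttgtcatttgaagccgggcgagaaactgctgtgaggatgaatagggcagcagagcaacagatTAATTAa
These were the 3 with the largest fold towards MGE under the same conditions:
chr16:5513282-5513581, intergenic, nearest start site Eef2kmt: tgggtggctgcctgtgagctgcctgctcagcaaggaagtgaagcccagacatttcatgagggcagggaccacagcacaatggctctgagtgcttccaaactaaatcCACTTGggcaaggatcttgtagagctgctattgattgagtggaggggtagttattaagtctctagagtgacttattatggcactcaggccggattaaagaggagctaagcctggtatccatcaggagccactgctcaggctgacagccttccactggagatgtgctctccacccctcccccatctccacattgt
chr9:91456630-91456929, intergenic, nearest start site Zic4: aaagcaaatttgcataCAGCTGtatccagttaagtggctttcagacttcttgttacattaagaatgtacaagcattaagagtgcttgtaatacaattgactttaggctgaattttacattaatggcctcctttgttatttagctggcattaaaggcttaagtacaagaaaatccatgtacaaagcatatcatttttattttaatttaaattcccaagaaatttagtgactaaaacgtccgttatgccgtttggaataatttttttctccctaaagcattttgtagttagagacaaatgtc
chr4:53321132-53321431, intergenic, nearest start site Slc44a1: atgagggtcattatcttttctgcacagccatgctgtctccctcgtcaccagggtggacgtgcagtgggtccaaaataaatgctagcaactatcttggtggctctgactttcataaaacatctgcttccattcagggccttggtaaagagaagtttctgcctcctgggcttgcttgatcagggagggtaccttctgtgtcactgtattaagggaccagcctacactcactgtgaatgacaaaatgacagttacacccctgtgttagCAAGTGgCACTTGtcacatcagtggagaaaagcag
The following window of a Meis2 intron was the called region with the largest fold towards LGE over any LGE patterning gene. It did not meet the condition on covered length and was chosen after its values were seen:
chr2:115923427-115923726, Meis2 intron: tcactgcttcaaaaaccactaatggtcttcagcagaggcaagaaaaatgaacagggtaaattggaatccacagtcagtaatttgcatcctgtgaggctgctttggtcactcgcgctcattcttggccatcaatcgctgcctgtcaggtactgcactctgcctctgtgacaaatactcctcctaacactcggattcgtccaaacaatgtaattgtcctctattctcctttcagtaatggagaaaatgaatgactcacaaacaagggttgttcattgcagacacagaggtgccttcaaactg

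Per sample, 77387940 to 138873845 counts in peaks were deposited over the 8 samples, 123925674 in LGE_1 and 80488152 in LGE_2, of which the LGE members held 34408255 and 23342762. Members were about as deep as the rest, with a median of 16328.5 counts per member against 15979 per other nucleus in LGE_1 and 15259 against 14575 in LGE_2. In MGE_2 the gap was wider, at 23348 against 15895.5. Between any pair of samples 15 to 56 cell barcodes were shared, and LGE_1 and LGE_2 shared 40 (0.608% and 0.839% of their nuclei). Peaks were called separately in each sample (103633 in LGE_1 and 142292 in LGE_2), and their extent over a gene could differ several-fold. Gene values are given as counts in the sample's own peaks over the gene per 1000000 counts of the same nuclei (CPM). Where it matters they are therefore also given over whole merged regions that touched the gene and had a peak in all 6 eminence samples. Such counts also come only from a sample's own peaks, anywhere inside the region, so the covered length could still differ between samples. Either kind of CPM is a sum over a gene's peaks and is compared only for the same gene between samples or classes of nuclei.

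The scores that chose the members are a description of the rule, not a finding. The lowest score of a member was 0.841 in LGE_1 and 0.861 in LGE_2, against 0.833 and 0.733 in MGE and 0.816 and 0.824 in CGE. The same share of nuclei thus reached further down the score in MGE_2 than elsewhere. A was counted over 22 and 23 peaks in LGE, 12 and 18 in MGE and 22 and 23 in CGE. B was counted over 17 and 23, 25 and 29, and 24 and 30 peaks in the same order. Scores and counts at these genes are therefore not on the same scale between samples. The last 1% of LGE nuclei inside the cut scored 0.841 to 0.848 in LGE_1 and 0.861 to 0.864 in LGE_2, and the first 1% outside 0.833 to 0.841 and 0.855 to 0.861. The cut fell on a slope and not in a gap. LGE members had a median of 26 and 33 counts at the progenitor genes (other nuclei 13 and 16) and 2 at the GABAergic genes in each sample (other nuclei 8 and 12). No count at all at the 5 GABAergic genes was seen in 746 members of LGE_1 (42.3%) and 487 of LGE_2 (35.2%). When every nucleus was first thinned to 5000 counts, 77.4% and 78.8% of the members were chosen again.

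**Figure D1:**
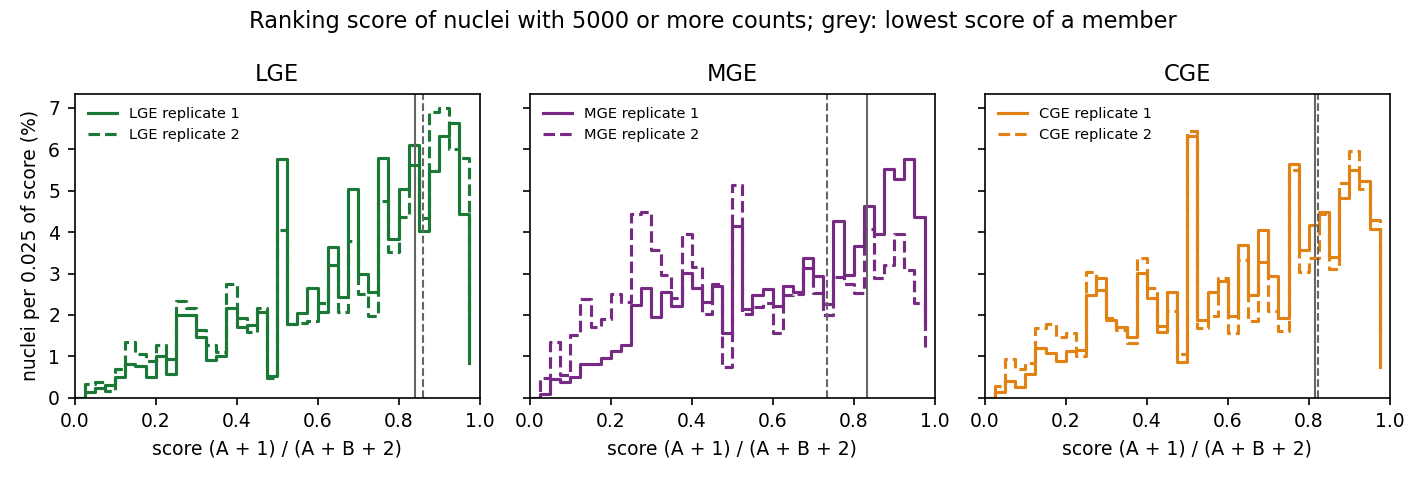
Distribution of the ranking score, as the percent of a sample's nuclei with 5000 or more counts in each 0.025 of score, for LGE, MGE and CGE (solid, replicate 1, and dashed, replicate 2). Grey lines mark the lowest score of a member, which was 0.841 and 0.861 in LGE and 0.733 in MGE_2. Scores are ratios of small counts and pile up at simple fractions such as 0.5.

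The name LGE progenitor-like was checked with Gsx2, a marker that the rule did not use (chr5:75075601-75077893, plus strand). In the merged region over Gsx2, members had 139 CPM in LGE_1 and 173 in LGE_2, against 89 and 108 in the other nuclei of the same samples. MGE members had 146 and 138 and CGE members 127 and 137. Gsx2 was therefore higher in members than in other nuclei of every eminence sample. The LGE and MGE ranges met and the CGE samples lay just below LGE, with log2 differences of 0.11 ± 0.15 from MGE (SE, adjusted p = 0.824, edgeR's quasi-likelihood test over merged regions) and 0.17 ± 0.15 from CGE (adjusted p = 1.00). In the samples' own peaks the LGE values were 40.2 and 173 CPM, where the LGE_1 peaks covered 3.49 kb of this locus and those of LGE_2 10.2 kb. After thinning to 5000 counts, 14.4% of LGE_1 members and 47.4% of LGE_2 members had a count in their own Gsx2 peaks (12.52% and 29.3% of other nuclei). The name progenitor-like is kept, and LGE refers to the dissection, since Gsx2 alone was not shown to differ between eminences.

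Genes of radial glia that the rule did not use were more accessible in LGE members than in the other LGE nuclei, and neuronal genes were less accessible. Nuclei were ranked in this same contrast, so the values are given without a test. Of 18 further radial glia genes, 16 were higher in members of both LGE samples and none was lower in both (median log2 difference 0.47 and 0.50, against -0.04 in each sample over all 12373 genes compared). The same 16 were higher in members of all 6 eminence samples. Slc1a3, the glial glutamate transporter GLAST, had 116 CPM in members and 65.5 in other nuclei of LGE_1, and 94.9 and 53.4 in LGE_2. Fabp7, a fatty acid binding protein of radial glia, had 81.4 against 45.8 CPM and 83.5 against 43.5. Members stood above the other nuclei of their sample at both genes. Rfx4, a transcription factor of the neural tube, had 229 against 153 CPM and 248 against 153, and Hmga2, a chromatin protein of young neural stem cells, had 400 against 243 and 426 against 259. Ptprz1 and Tnc, markers of outer or later radial glia, were the exceptions. Ptprz1 had 78.1 against 82 CPM in LGE_1 and 93.3 against 86.7 in LGE_2, and Tnc 22.3 against 22.2 and 18 against 18.1.

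All 12 neuronal genes were lower in members of both LGE samples and of all 6 eminence samples (median log2 difference -0.49 and -0.52). Tubb3, the neuronal tubulin, had 92.7 CPM in members against 152 in other nuclei of LGE_1 and 87.8 against 150 in LGE_2, and Stmn2, a microtubule regulator of growing axons, 32 against 62.8 and 20.6 against 56.4. The list summed to 1877 CPM in members against 2529 in other nuclei of LGE_1 and to 1672 against 2402 in LGE_2, so members were not free of signal at neuronal genes. Over all 12373 genes compared, 6075 were lower in members of both samples and 3960 higher, and the shorter lists are read against that. Of 9 striatal lineage genes 7 were lower in members of both samples, and of 9 basal progenitor genes 6 were lower and 3 higher.

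Along the whole ranking levels moved gradually and the cut at 30% was not a break. Fabp7 went from 93.2 CPM in the top 10% to 26.4 in the lowest 30% of LGE_1 and from 90.2 to 18.1 in LGE_2, and Slc1a3 from 120 to 43.7 and from 104 to 26.5. Pax6, a homeodomain factor of dorsal LGE and cortex, had a smaller fold between top and bottom, from 309 to 184 CPM and from 285 to 201. Tubb3 ran the other way, from 85.0 to 178 CPM and from 81.3 to 186, as did Sp9, a zinc finger factor of striatal precursors, from 56.1 to 147 and from 69.7 to 176. Meis2, which is active in LGE progenitors and their neurons, stayed nearly level, from 543 to 489 CPM and from 630 to 574.

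**Figure D2:**
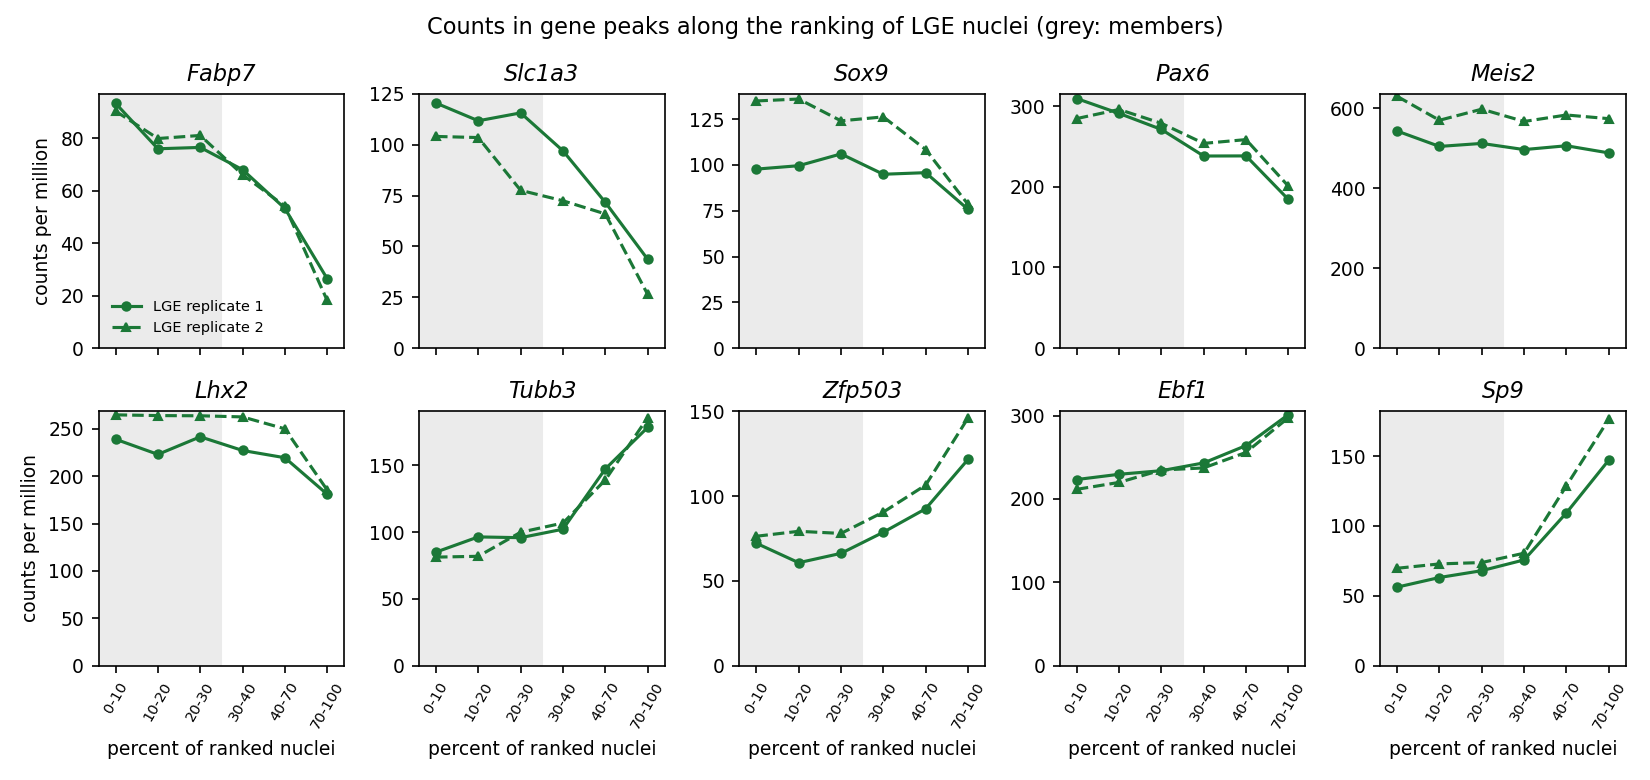
Counts in the peaks of 10 genes, in CPM, along the ranking of LGE nuclei in 6 bins from the top 10% to the lowest 30% (solid, LGE_1, and dashed, LGE_2), with members shaded grey. Fabp7 and Slc1a3 go down and Tubb3, Zfp503, Ebf1 and Sp9 go up from the top 10% to the lowest 30% in both samples, and Meis2 spans 543 to 489 and 630 to 574.

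The pathway lists differed in how their parts behaved. Of 10 Notch pathway genes beyond those in the rule, 7 were higher in members of both LGE samples. These included the target genes Hey1, with 126 against 101 CPM in LGE_1 and 134 against 103 in LGE_2, and Nrarp, with 129 against 92.5 and 133 against 90.5, and the ligand Jag1, with 195 against 136 and 193 against 131. The other 3 were the ligands Dll1, with 186 against 204 CPM and 166 against 194, and Dll3, with 40.4 against 62.1 and 37.5 against 53.1, and the nuclear effector Rbpj, with 136 against 148 and 130 against 145. The Notch targets and the Delta ligands were thus on opposite sides. In the Sonic hedgehog list 8 of 11 genes were higher in members. Gli3, the main repressor of the pathway, had 603 against 392 CPM and 610 against 377, Gli2, its main activator, 514 against 379 and 479 against 360, and the receptor Ptch1 451 against 334 and 534 against 375. In the retinoid list 7 of 11 genes were lower and 3 higher. The receptor gene Rara had 199 against 256 CPM and 174 against 237.

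Over all genes, 3960 of the 12373 compared were higher in members of both LGE samples and 6075 lower, but few by much: 122 were more than 1.5-fold higher in both and 163 more than 1.5-fold lower. Among the 10 largest differences upwards were Mpeg1, a pore-forming protein best known from macrophages, with 28.7 against 11.8 CPM in LGE_1 and 27.9 against 12.1 in LGE_2 (2.42-fold and 2.31-fold), and Mlc1, a membrane protein of astrocytes, with 89.9 against 39.9 and 77.2 against 35.0 (2.25-fold and 2.21-fold). Mpeg1 is not in the blood-lineage list, which summed to 300 CPM in members and 266 in other nuclei of LGE_1 and to 275 and 266 in LGE_2. Among the 10 largest differences downwards were the sodium channel gene Scn3a, with 12.2 against 47.8 CPM and 12.3 against 38.2, Ina, a neurofilament protein, with 15.2 against 44.6 and 13.8 against 51.6, and the growth factor gene Fgf3, with 10.7 against 33.6 and 11.3 against 36.9. The 10 genes at either end had the same direction in MGE and CGE members.

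Lists of other cell types that a dissection could carry differed less between members and other nuclei than the radial glia and neuronal lists, which summed to 5232 against 4060 CPM and 1877 against 2529 in LGE_1. The 10 pallial genes summed to 579 CPM in members and 518 in other nuclei of LGE_1 and to 637 and 608 in LGE_2, with 4 genes higher and 6 lower in members of both samples. Of nuclei thinned to 5000 counts, the pallial marker Emx1 had a count in 12.4% and 12.9% of members and in 14.1% and 16.2% of other nuclei. Eomes, another pallial marker, had one in 9.25% and 16.8% of members and in 11.7% and 20.5% of other nuclei. The endothelial list summed to 190 against 224 CPM and 173 against 207, with 7 of 8 measured genes lower in members of both samples. Kdr, the endothelial growth factor receptor, had a count in 9.31% and 12.3% of members and in 10.2% and 8.60% of other nuclei. The oligodendrocyte lineage list summed to 221 against 202 and 260 against 242, and the mural or mesenchymal list to 212 against 196 and 206 against 185. Of 8 measured mural or mesenchymal genes 5 were higher and 2 lower in members of both samples (median log2 difference 0.19 and 0.20). Of 8 measured blood-lineage genes 5 were higher and 1 lower (0.23 and 0.14). Over all 12373 genes compared 3960 were higher and 6075 lower (-0.04 in each sample). Emx1, Eomes, Kdr and Cldn5 were all above 0 in members of both samples. When the 5% of nuclei richest in the endothelial, blood-lineage, mural and pallial genes were removed before ranking, 33.7% of those dropped in LGE_1 and 29.0% in LGE_2 had been members, near the 30% of all nuclei. Doublets were not called.

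LGE and MGE members differed at a few of the listed patterning and signalling genes, while most of these genes did not pass. In the samples' own peaks MGE members were higher at Nkx2-1 (chr12), Lhx6 and Shh, and LGE members were higher at Pax6, Gli2 and Emx2, with CGE members nearer to LGE than to MGE at these genes. The comparison asks which loci differ in accessibility between LGE and MGE members of the same stage. It was tested on sums over the members of each sample, 2 against 2, with edgeR's quasi-likelihood test and Benjamini-Hochberg adjustment over all genes. Whether the same cut gave equal members cannot be told from the rule's own genes. The rule's GABAergic genes summed to 112 and 131 CPM in LGE members and to 231 and 283 in MGE members. They were counted over 17 and 23 peaks in LGE and 25 and 29 in MGE, so these sums are not on the same scale. What unequal members or peaks contributed to the differences was not tested. At an adjusted p of 0.05 or less, 93 of 16985 genes were called (0.548%), 31 higher and 62 lower in LGE members. Over whole merged regions 181 of 16305 genes were called (1.11%), 92 higher and 89 lower. The gene counts depended strongly on single samples: 32 genes were called without LGE_1, 58 without LGE_2, 15 without MGE_1 and 264 without MGE_2. With an offset for the length that each sample's peaks covered, 2 were called, and none of the 6 genes just named was among them. Their log2 differences were then -1.96 at Nkx2-1 (adjusted p = 0.0715), -1.32 at Shh, 0.80 at Pax6, 0.26 at Gli2 and 0.69 at Emx2, and the sign at Lhx6 turned.

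Nkx2-1, the factor that specifies MGE, had 62.7 and 76.4 CPM over its merged region in LGE members, 545 and 373 in MGE members and 67.7 and 68.6 in CGE members. Its log2 difference from MGE was -2.73 (adjusted p = 0.000224) over merged regions and -3.94 ± 0.21 (SE, adjusted p = 0.00126) in the samples' own peaks, and it passed without any one of the 6 samples. After thinning, 10.9% and 10.3% of LGE members had a count in their own sample's Nkx2-1 peaks, against 80.1% and 71.7% of MGE members. Those peaks were called per sample, and the difference at Nkx2-1 was smaller with the covered-length offset, as given above. Lhx6, which Nkx2-1 activates in MGE-derived interneurons, had 33.0 and 43.2 CPM in LGE members and 106 and 117 in MGE members (-1.56 ± 0.18, adjusted p = 0.0193). The call at Lhx6 was lost without LGE_1 or MGE_1 (largest adjusted p 0.0783). Its merged region was covered by peaks over 6707 and 10050 bp in LGE and 30487 and 30439 bp in MGE, and with the offset for covered length the sign turned, to 0.48 (adjusted p = 0.653). Shh, the ventral signalling protein, had 17.1 and 22.3 CPM in LGE members, 81.9 and 88.1 in MGE and 25.4 and 31.8 in CGE (-2.12 ± 0.19, adjusted p = 0.0136, and 0.0551 without MGE_1). At all 3 genes the lowest MGE sample lay above the highest LGE sample.

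On the other side stood Pax6 (chr2:105668900-105697364), with 290 and 287 CPM in LGE members, 156 and 167 in MGE and 281 and 298 in CGE. Its log2 difference from MGE was 0.83 ± 0.12 (adjusted p = 0.0485), and 0.80 (adjusted p = 0.0156) over merged regions. Gli2 (chr1:118834132-119053619) had 514 and 479 CPM in LGE members, 271 and 282 in MGE and 492 and 452 in CGE (0.84 ± 0.12, adjusted p = 0.0479, and 0.77 with adjusted p = 0.0179 over merged regions). Emx2, a homeodomain factor of the dorsal forebrain, had 178 and 202 CPM in LGE members and 76.0 and 81.8 in MGE (1.26 ± 0.19, adjusted p = 0.0491, and 0.91 with adjusted p = 0.0428 over merged regions). None of these groups overlapped, yet each call was fragile. Those at Pax6 and Gli2 were kept without MGE_2 and lost without each of the other 5 samples (largest adjusted p 0.284 and 0.255), and that at Emx2 was lost without any LGE or MGE sample (0.199). CGE members had 136 and 196 CPM at Emx2, which reached into the LGE range. Emx2 was the only pallial gene called, and the summed pallial list was 579 and 637 CPM in LGE members, 453 and 442 in MGE and 560 and 700 in CGE. With the 5% of nuclei richest in pallial and other cell types' genes removed from each sample, Emx2 gave 1.24 (adjusted p = 0.0466).

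By list, and beside the 0.548% of all genes called, the samples' own peaks gave 1 of 9 LGE patterning genes higher, 1 of 11 Sonic hedgehog genes higher and 1 lower, 2 of 8 MGE genes lower, 1 of 10 pallial genes higher and 1 of 9 tested blood-lineage genes higher, and no gene in the radial glia, Notch, basal progenitor, neuronal, striatal, CGE, retinoid, endothelial, mural and oligodendrocyte lists. The blood-lineage gene was Ptprc, the leukocyte phosphatase CD45, with 28.8 and 21.4 CPM in LGE members and 8.89 and 10.4 in MGE (1.38 ± 0.21, adjusted p = 0.0491, and 0.88 with adjusted p = 0.103 over merged regions). Its call was kept without LGE_2 and lost without each of the other 5 samples (largest adjusted p 0.233). The whole blood-lineage list summed to 300 and 275 CPM in LGE members and 278 and 240 in MGE members. Merged regions, with 1.11% of all genes called, added Meis2 and Boc on the LGE side. Meis2 (chr2:115863064-116065839) had 519 and 598 CPM in its own peaks in LGE members, 329 and 340 in MGE and 436 and 453 in CGE (0.73 ± 0.12, adjusted p = 0.0674, and 0.60 with adjusted p = 0.0463 over merged regions). Boc, a Sonic hedgehog co-receptor, had 295 and 295 CPM against 170 and 170 (0.79, adjusted p = 0.0535, and 0.70 with adjusted p = 0.0297). On the MGE side they added Sp9, with 62.7 and 72.1 CPM against 143 and 129, Nr2f2, with 73.8 and 123 against 243 and 236, Olig2, with 111 and 126 against 259 and 185, and Sox10. Their adjusted p was 0.0298, 0.0411, 0.0358 and 0.0161 over merged regions, and 0.0688, 0.222, 0.141 and 0.486 in own peaks.

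Several genes that pattern LGE or carry its signals did not pass. Gli3 had 603 and 610 CPM in LGE members and 353 and 440 in MGE (0.60, adjusted p = 0.172), and Gas1, another Sonic hedgehog co-receptor, 166 and 182 against 97.7 and 115 (0.70, adjusted p = 0.124). Meis1 had 339 and 310 CPM against 245 and 256 (0.37, adjusted p = 0.324). At each of these 3 genes the LGE samples lay above the MGE samples, but none was called. The share of all genes that separated in this way is not given, so this is not read as a difference. The Sonic hedgehog targets Ptch1 and Gli1 were close to level (-0.11 and -0.01). In the Notch list, Notch2 had 219 and 184 CPM in LGE members and 340 and 304 in MGE (-0.68, adjusted p = 0.154), and Dll3 gave -0.79 (adjusted p = 0.138) and Dll1 -0.48 (adjusted p = 0.209). The radial glia list summed to 5232 and 5714 CPM in LGE members and to 6068 and 5542 in MGE members, so the groups overlapped, and so did the neuronal list at 1877 and 1672 against 1751 and 1938.

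By size of the fold, among called genes with similar peak coverage, the 5 genes highest in LGE members were Oxgr1, Ankk1, Wnt2, Agbl1 and Lgals12. Lgals12, a galectin of fat cells, had 82.3 and 76.0 CPM in LGE members, 30.4 and 25.0 in MGE and 93.1 and 83.7 in CGE (1.51 ± 0.16, adjusted p = 0.0170). Agbl1, a carboxypeptidase gene, had 109 and 121 CPM against 26.9 and 45.2 (1.66 ± 0.25, adjusted p = 0.0491), and the metabolite receptor gene Oxgr1 27.3 and 26.0 against 4.45 and 8.15 (2.07 ± 0.31, adjusted p = 0.0485). Ankk1, beside the dopamine receptor gene Drd2, had 10.3 and 9.34 CPM against 2.09 and 2.77 (2.00 ± 0.29, adjusted p = 0.0479). Wnt2, a secreted signalling protein, had 24.0 and 23.5 CPM against 5.59 and 7.19 (1.89 ± 0.21, adjusted p = 0.0186), but 7.96 and 6.51 against 5.59 and 7.19 over merged regions (0.16, adjusted p = 0.890). The other 4 kept an adjusted p of 0.0149 or less over merged regions. The 5 lowest were Hsd17b3, an enzyme of testosterone synthesis, with 26.3 and 34.5 CPM against 84.4 and 100 (-1.61 ± 0.19, adjusted p = 0.0208), Dnmt3c, a DNA methyltransferase of male germ cells, with 27.6 and 20.4 against 73.3 and 67.1 (-1.55 ± 0.18, adjusted p = 0.0186), Lypd4 and Dmrtc2, which share their peaks and of which Lypd4 had 13.1 and 14.7 against 38.5 and 40.0 (-1.51 ± 0.17, adjusted p = 0.0186), and Ccdc32, with 25.2 and 26.1 against 66.6 and 69.3 (-1.41 ± 0.13, adjusted p = 0.0141). Absence of overlap between the LGE and MGE samples was a condition for naming these 10 genes and not a result. The call was lost on leaving out MGE_1 at Lgals12, Agbl1, Oxgr1, Ankk1, Wnt2, Hsd17b3, Dnmt3c, Lypd4 and Ccdc32. Omission of LGE_1 or LGE_2, or of both in turn, also ended the call at all of these but Wnt2.

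A larger share of single regions than of genes passed between LGE and MGE members. Of 77123 merged regions tested, 8014 were called (10.4%), 4139 higher (5.37%) and 3875 lower (5.02%) in LGE members. Without LGE_1 4566 and without MGE_1 4992 were called. With the covered-length offset 5055 were called, 3606 higher and 1449 lower, so that the share of higher calls went from 51.6% to 71.3%, and the median log2 difference of all regions was 0.17 under that offset against 0.01. Called regions lay mostly outside promoters. Of the higher ones 5.24% and of the lower ones 7.85% lay within 1000 bp of a start site, while 22.9% of all regions tested did so, and the median distance to a start site was 48175 and 27447 bp against 15491 bp.

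The first of the printed regions towards LGE, chr13:43929889-43931338, lay 144704 bp from the start site of Cd83. It had 33.9 and 35.6 CPM in LGE members, 2.33 and 1.85 in MGE and 14.998 and 9.59 in CGE (log2 4.02 ± 0.28, adjusted p = 0.00019), and 16.1 and 15.6 in the other LGE nuclei. CGE members were between LGE and MGE here. The region 126952 bp from Parp11, chr6:127318851-127319888, had 34.8 and 35.9 CPM against 3.23 and 2.60, with 30.2 and 16.1 in CGE (3.57 ± 0.30, adjusted p = 0.00030). The Alcam intron region, chr16:52386649-52387591, in the gene of a cell adhesion molecule, had 8.34 and 9.77 CPM against 0.336 and 1.23 (3.55 ± 0.54, adjusted p = 0.0033). The Meis2 intron region, chr2:115922670-115924485, had 17.1 and 14.7 CPM in LGE members, 1.11 and 2.57 in MGE and 16.2 and 13.9 in CGE (3.11 ± 0.35, adjusted p = 0.00096, and 2.03 with the covered-length offset). Here CGE stood with LGE.

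Towards MGE, chr9:91456115-91457446, 73705 bp from the start site of the zinc finger gene Zic4, had 1.74 and 1.37 CPM in LGE members, 17.0 and 27.8 in MGE and 0.642 and 1.39 in CGE (-3.86 ± 0.41, adjusted p = 0.00072). The other LGE nuclei had 8.66 and 7.18 CPM at this region, more than the members. The region 118535 bp from the Slc44a1 start site, chr4:53320686-53321878, had 2.12 and 1.37 CPM against 18.1 and 23.0 (-3.57 ± 0.32, adjusted p = 0.00040). The region 257001 bp from Eef2kmt, chr16:5512984-5513880, had 0.233 and 0.471 CPM against 3.80 and 6.71 (-3.94 ± 0.55, adjusted p = 0.0024). All 7 of these regions passed without any one of the 6 samples and with the covered-length offset.

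The letters printed above were then counted in the central 300 bp of every region, on both strands. TAATTA occurred in 21.2% of the regions higher in LGE members, 10.7% of those lower and 10.4% of all tested. Outside promoters the shares were 21.8%, 10.9% and 12.52%. Of the printed windows, the Cd83 one holds 2 such matches and the Alcam one 1. CAGCTG was distributed the other way, in 16.5% of the higher, 29.9% of the lower and 22% of all regions, and CACTTG or CAAGTG in 15.9%, 23.7% and 16.7%. The Zic4 window holds CAGCTG, the Eef2kmt window CACTTG, and the Slc44a1 window CAAGTG and CACTTG 1 base apart. Letters bound by Meis and related factors, TGACAG or CTGTCA, gave 25.1%, 25.5% and 23.1%, close to even. GC content, which affects how often any word occurs, was 45.5% in the higher, 48.1% in the lower and 50.7% in all windows. These counts describe letters and do not show that a factor was bound.

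Calls over genes of the lists are read against the 5.37% of all regions called higher and the 5.02% called lower. With the covered-length offset 3606 of the 77123 regions were called higher and 1449 lower, and the median of all regions rose from 0.01 to 0.17. Counts with the offset are read against that. Of 50 regions over LGE patterning genes, 15 were higher and 0 lower in LGE members (median log2 difference 0.64), 8 of 16 at Meis2, 4 of 12 at Meis1, 2 of 2 at Pax6 and 1 of 7 at Etv1. Of 63 over Sonic hedgehog genes, 21 were higher and 4 lower (median 0.59), with 8 higher and 1 lower of 16 at Gli2, 6 of 16 higher at Gli3 and 4 of 8 at Boc, and the only region at Shh lower. Regions of a gene are neighbours on the same chromosome and not independent. With the covered-length offset the counts were 9 higher and 0 lower, and 8 higher and 3 lower. Of 38 Notch regions 0 were higher and 7 lower (median -0.34), 4 of them at Notch2, and with the offset 3 were lower. The 294 radial glia regions were split, with 17 higher and 23 lower, or 15 higher and 8 lower with the offset, and 166 of them lay in the long annotated window of the receptor gene Fgfr2 (6 higher, 13 lower). Of 28 regions at CGE genes 6 were lower, 3 of them at Prox1, and 1 higher, also at Prox1, and with the offset 1 was lower and 0 higher. Of 47 at MGE genes 6 were lower and 2 higher, and with the offset 2 were lower and 4 higher. The offset moved the calls over all regions towards higher as well. In lists of other cell types 1 of 12 pallial and 1 of 20 blood-lineage regions were higher, and 2 of 29 endothelial and 1 of 21 mural regions lower. These shares (8.33%, 5%, 6.90% and 4.76%) stand beside 10.4% of all regions called. They rest on too few calls to set a list apart. In the oligodendrocyte list 3 of 7 were called, all lower, at Olig2 and Sox10. With the offset both calls at Sox10 were lost (adjusted p = 0.0536 and 0.428) and 1 of the 7 was called.

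At Pax6 the promoter-proximal region chr2:105685908-105691841 had 61.0 and 50.3 CPM in LGE members, 22.8 and 21.9 in MGE and 74.9 and 73.0 in CGE (1.29 ± 0.17, adjusted p = 0.0020). Another Meis2 intron region, chr2:116034122-116037803, had 29.96 and 29.0 CPM against 3.57 and 3.39, with 19.8 and 14.8 in CGE (3.05 ± 0.22, adjusted p = 0.00022). Peaks covered 3227 and 3682 bp of it in LGE and 1133 and 1584 bp in MGE, and with the offset the difference was 1.67 (adjusted p = 0.00087). The Gli2 intron region chr1:118939555-118942569 had 8.34 and 7.497 CPM against 1.09 and 0.925 (2.94 ± 0.31, adjusted p = 0.00073), and with the offset 1.41 (adjusted p = 0.024). Covered lengths there were 1637 and 2428 bp in LGE and 572 and 830 bp in MGE. At these regions of Pax6, Meis2 and Gli2 CGE members were nearer to LGE than to MGE. The promoter region of Ptch1, chr13:63540656-63545934, had 59.5 and 63.0 CPM against 29.2 and 34.4 (0.92 ± 0.18, adjusted p = 0.0107), although the gene's sum was level. Of 8 regions tested at Ptch1, 1 was called higher and 1 lower in LGE members. Of 126 regions over striatal lineage genes 8 were higher in LGE members and 6 lower (11.1% called, against 10.4% of all regions), and 10 higher and 2 lower with the offset. At Foxp1, a factor of striatal projection neurons, 6 of 34 regions were higher in LGE members and 2 lower. The one with the largest fold, chr6:99309578-99311437, had 23.8 and 21.7 CPM against 4.73 and 2.26 (2.65 ± 0.33, adjusted p = 0.0015). At the Dll1 promoter region chr17:15367694-15370795 the difference of -2.18 (adjusted p = 0.011) was -0.45 (adjusted p = 0.590) with the covered-length offset. LGE peaks covered 326 and 1180 bp of it and MGE peaks 1965 and 2430 bp.

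**Figure D3:**
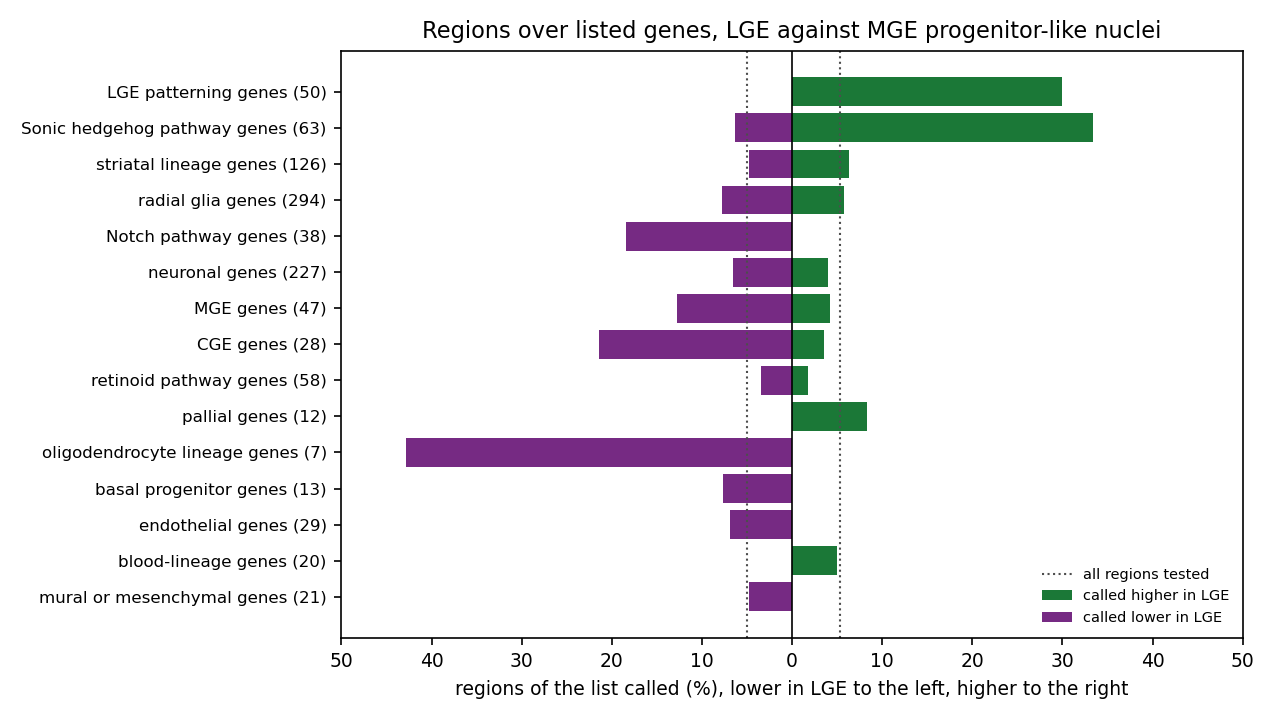
Percent of the regions over each list's genes that were called higher (green, right) or lower (purple, left) in LGE than in MGE progenitor-like nuclei, with the number of regions tested in brackets and dotted lines at the shares over all regions (5.37% and 5.02%). LGE patterning and Sonic hedgehog genes extend furthest to the right, at 15 of 50 and 21 of 63 regions, and the oligodendrocyte bar rests on 7 regions.

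LGE and CGE members differed much less. In the samples' own peaks 3 of 16985 genes were called (0.0177%), all lower in LGE, and over whole merged regions 0 of 16305 (0.0%), with 561 below an unadjusted p of 0.05 in edgeR. DESeq2 called 77 in own peaks. The 3 genes were outside the rule for named genes and were looked up after the fit. Stap2, a signalling adaptor gene, had 2.85 and 4.63 CPM in LGE members and 91.5 and 85.4 in CGE (-4.62 ± 0.27, adjusted p = 0.0033), but 93.5 and 90.4 against 91.5 and 85.3 over merged regions (-0.01). Own peaks covered 0.819 and 1.34 kb there in LGE and 4.95 and 5.60 kb in CGE. The same happened at 4930415O20Rik, with 7.93 and 8.57 CPM against 53.5 and 61.4 in own peaks (-2.84 ± 0.17, adjusted p = 0.0033) and a log2 difference of -0.03 over merged regions, and at Sh2d6, with 12.53 and 11.6 against 45.9 and 42.7 (-1.92 ± 0.16, adjusted p = 0.0162) and -0.19. No gene of any list was called against CGE in either count. The largest differences in the CGE list were at the orphan nuclear receptor genes. Nr2f1 had 180 and 168 CPM in LGE members and 406 and 728 in CGE (-1.74 ± 0.25, adjusted p = 0.219), and Nr2f2 73.8 and 123 against 260 and 530 (-2.04, adjusted p = 0.391). Over merged regions each had an adjusted p of 0.0633, and the CGE samples lay above the LGE samples at both genes.

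Of the 77123 regions, 37 were called against CGE (0.048%), 13 higher and 24 lower in LGE members, and none of them lay over a listed gene. With the covered-length offset the balance turned, to 414 higher and 36 lower, with 23 of the 37 among them. The offset also moved the median log2 difference of all regions from 0.01 to 0.26, so the turn came with a shift of all regions. An intergenic region on chromosome 10, chr10:92091374-92092692, lay 623786 bp from its nearest start site, that of Nedd1. It had 19.8 and 39.8 CPM in LGE members, 5.87 and 6.44 in MGE and 3.93 and 4.54 in CGE. Its log2 difference from CGE was 2.86 ± 0.37 (adjusted p = 0.0453). LGE stood above both other eminences here. A region 777183 bp from the Kcnj2 start site gave 2.47 ± 0.32 and a Shc4 intron region 2.42 ± 0.31. Each had an adjusted p of 0.0453. The former had 13.3 and 20.1 CPM in LGE members, 5.74 and 5.89 in MGE and 2.81 and 3.33 in CGE. At Shc4 LGE members had 11.8 and 18.0 CPM, MGE 15.98 and 19.2 and CGE 3.37 and 2.38. A Focad intron region, chr4:88372074-88373635, was lower, with 10.5 and 7.11 CPM against 37.9 and 43.8 (-2.19 ± 0.23, adjusted p = 0.0378). MGE members had 12.515 and 12.915 CPM there. At Shc4 and Focad MGE members were nearer to LGE than to CGE. All 4 calls were lost when any MGE or CGE sample was left out (largest adjusted p 0.379 to 0.407) and with the replicate number as a block (0.0675 to 0.0713). The total was 3 without CGE_1, 0 without CGE_2, MGE_1 or MGE_2 and 308 without LGE_2.

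A further test asked whether members differ from the other nuclei of their own sample by a different amount in LGE than in MGE. Here a negative value means that the gene was less raised, or more lowered, in LGE members. Of 17311 genes, 795 passed (4.59%), 336 with a positive and 459 with a negative value, and over merged regions 499. Without LGE_1 121, without LGE_2 192 and without MGE_2 317 passed. The cut reached lower scores in MGE_2 (0.733), and what that contributed was not tested.

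Zfp503, a zinc finger gene of the striatal lineage, had 66.1 CPM in members and 101 in other nuclei of LGE_1 and 77.9 and 118 in LGE_2. In MGE members were the higher class, with 112 and 98.4 CPM and 102 and 91.1. The difference of differences was -0.79 ± 0.08 (adjusted p = 6.79e-07), held over merged regions (-0.76) and passed without any one sample. In all, 3 of 9 striatal genes passed, the others being Foxp2 (-0.37, adjusted p = 0.00136) and Ebf1 (-0.33, adjusted p = 0.00418), and 3 of 9 LGE patterning genes, Meis2 (-0.35, adjusted p = 0.00238), Tshz1 (-0.33, adjusted p = 0.0068) and Gsx2 (-0.43, adjusted p = 0.0318, and 0.322 over merged regions). Meis2 was higher in members than in other nuclei of each LGE and MGE sample, with the wider gap in MGE. Of 10 Notch genes 5 passed, all negative: Dll1 (-0.46, adjusted p = 0.000482), Dll3 (-0.39), Jag1 (-0.41), Lfng (-0.36) and Notch2 (-0.34). Dll1 was lower in members than in other nuclei in LGE (186 against 204 CPM and 166 against 194) and higher in MGE. Of 11 Sonic hedgehog genes 3 passed, all negative: Boc (-0.48), Gli3 (-0.34) and Shh (-0.36). Leaving out either LGE sample ended the call at Dll1 (adjusted p up to 0.0854), Notch2 (0.195), Foxp2 (0.197), Ebf1 (0.224) and Meis2 (0.242), and leaving out LGE_1 that at Boc (0.117). The calls at Dll3, Jag1, Lfng, Gli3, Shh, Tshz1 and Meis2 were lost without LGE_1, LGE_2 or MGE_2, and that at Gsx2 without LGE_1, MGE_2, CGE_1 or CGE_2 (adjusted p up to 0.795).

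Lhx6 gave the largest positive value among listed genes. It had 33.0 CPM in members and 39.5 in other nuclei of LGE_1 and 43.2 and 50.7 in LGE_2, against 106 and 305 and 117 and 269 in MGE (1.11 ± 0.09, adjusted p = 1.76e-08, and 0.92 over merged regions), and passed without any one sample. Of 8 MGE genes 3 passed with a positive value, Lhx6, Lhx8 and Gbx1, and Nkx2-1, the factor that specifies MGE, with a negative one (-0.38, adjusted p = 0.0044, and 0.164 over merged regions). Lhx8, a factor of MGE-derived cholinergic neurons, gave 0.64 (adjusted p = 9.58e-06) and Gbx1 0.74 (adjusted p = 0.00105). Of 9 basal progenitor genes 2 passed with a positive value, Dlx1 (0.29, adjusted p = 0.0095) and Dlx2 (0.29, adjusted p = 0.0106), and 2 with a negative one, Insm1 (-0.47, adjusted p = 0.0028) and Btg2 (-0.39, adjusted p = 0.0077). Dlx1 and Dlx2 had identical CPM along the ranking in LGE_2, MGE_1, MGE_2 and CGE_2, and are not separate measurements there. Lhx8 passed without any one sample, Gbx1 was lost without LGE_1 (0.262) and Nkx2-1, Dlx1, Dlx2, Insm1 and Btg2 without LGE_1, LGE_2 or MGE_2. At Lhx6 the other MGE nuclei stood above the MGE members, and both LGE classes lay below the MGE members. In the remaining lists 2 of 12 neuronal, 1 of 18 radial glia, 1 of 9 endothelial and 1 of 8 mural or mesenchymal genes passed with a negative value, and 1 of 10 pallial and 1 of 6 CGE genes with a positive one. Of 11 retinoid genes 1 was positive and 2 negative, while no blood-lineage or oligodendrocyte gene passed. Beside the 4.59% of all genes that passed, 336 positive and 459 negative, counts this small are not read as a result about a list. Against CGE the same test called 17 genes (0.0982%), 2 positive and 15 negative, and Zfp503 was the only listed gene among them (-0.53 ± 0.08, adjusted p = 0.0029). In CGE it had 81.5 CPM in members and 78.4 in other nuclei of one sample and 116 and 132 in the other. That call was lost without LGE_1 or LGE_2 (adjusted p up to 0.394).

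**Figure D4:**
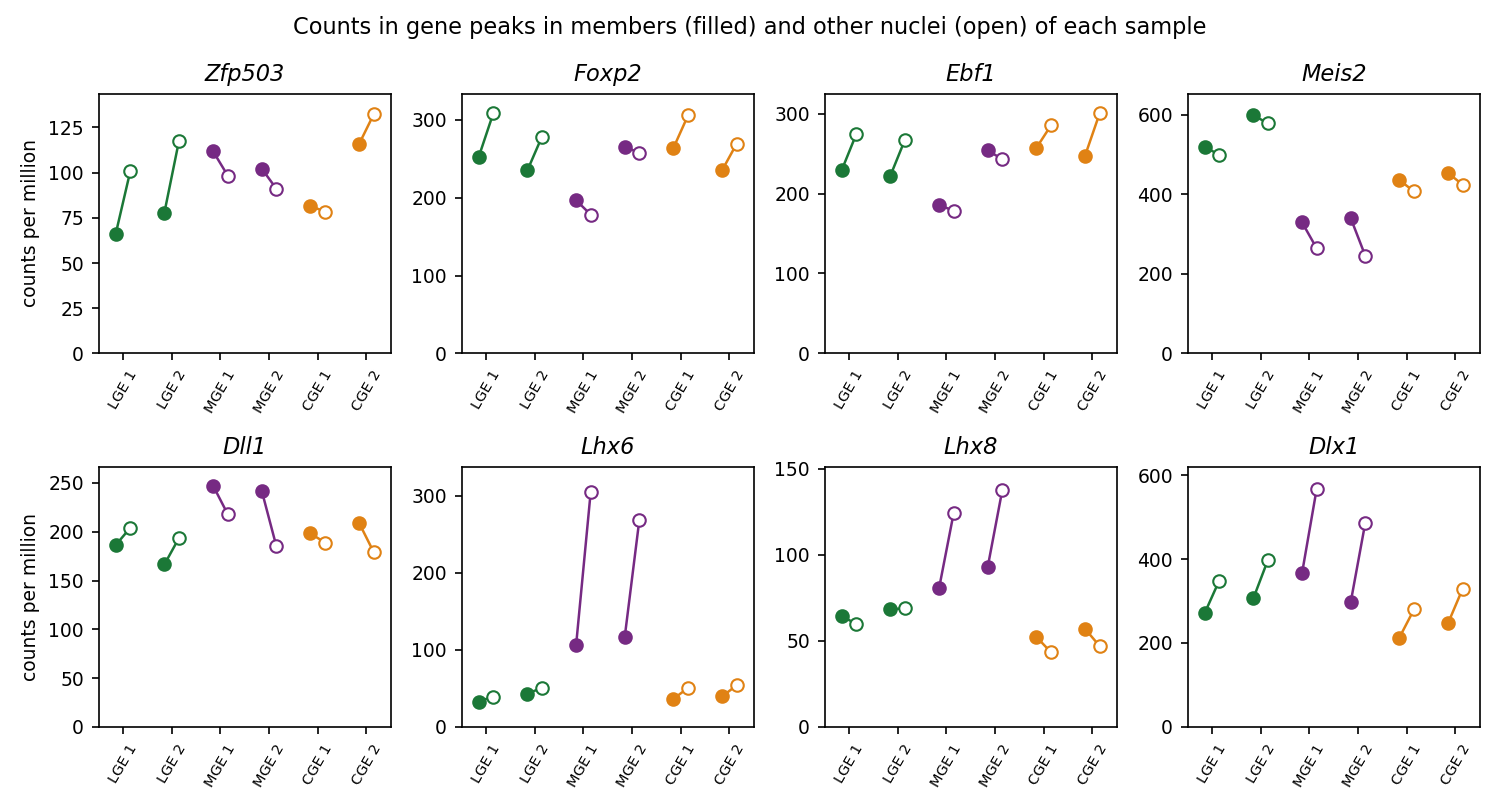
Counts in gene peaks, in CPM, in members (filled) and other nuclei (open) of each sample for 8 genes, joined within a sample. Zfp503 is lower in members than in other nuclei of both LGE samples and higher in both MGE samples, and Lhx6 goes from 106 to 305 and from 117 to 269 in MGE and from 33.0 to 39.5 in LGE_1.

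Motif counts, which the deposited files give per nucleus for 579 transcription factor motifs, were summed in the same way. No motif was called against MGE (0.0%) or CGE (0.0%) by edgeR, with 40 and 70 below an unadjusted p of 0.05, and DESeq2 called 11 and 16. The Pax6 motif had 65 and 49 CPM of all motif counts in LGE members, 33 and 33 in MGE and 50 and 36 in CGE (0.84 ± 0.24 against MGE, adjusted p = 0.617). Within LGE, without a test, the Pax6 motif was higher in members than in other nuclei by 0.27 and 0.28 on the log2 scale, and the MYBL1 motif by 0.46 and 0.44. Of 38 listed motifs, 19 were higher and 16 lower in members of both LGE samples. The smallest p against MGE belonged to NFIC::TLX1 (-0.43 ± 0.09, adjusted p = 0.617) and against CGE to Hoxa11 (1.29 ± 0.21, adjusted p = 0.392).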

How the data were processed

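Nuclei of 6 eminence samples were analysed from the deposited peak, barcode, count and motif files. Per the submitters' processing notes, Cell Ranger ATAC 1.2.0 and GRCm38 (mm10) were used, and the settings of further upstream steps are not given in the sources used here. Deposited values are raw counts per peak and nucleus and per motif and nucleus, with peaks called separately in each sample. Members, gene lists and tests were chosen with earlier results of these data known.

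Each peak was assigned to protein-coding genes (21911 on the reference annotation) whose body or 2000 bp upstream it overlapped. Ties in the ranking score at the cut were broken by the larger A + B. Peaks of the 6 samples were merged into 223135 regions, of which 77217 had a peak in every sample. Counts of a region were those in the sample's own peaks inside it. Counts were summed over the members of each sample and fitted with edgeR 4.0.16 (R 4.3.3; quasi-likelihood, TMM, filterByExpr, 3 groups of 2), with Benjamini-Hochberg adjustment over all features at 0.05. Differences of differences were fitted on 12 sums with sample as a block. Genes of the rule and 3 genes sharing their peaks (Myo3a, Bcan and Pank4) were in the fits and in the counts of calls, but no test of them singly is reported. P-values measure only the spread between these samples, which may be technical. No doublet caller was run.

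Named genes were, on either side, the 5 called genes that changed most and had no overlap between groups, a peak in all 6 samples, covered lengths within 1.5-fold and no peak shared with the rule's genes. Named regions were the 3 largest by the same conditions, with 200 bp or more of peak per sample, and named motifs the called ones or else the 3 with the smallest p. Without a test, the 10 genes at either end of the member difference were used. Genes of the fixed lists were named freely. Sequences were read from the reference genome with Python 3.11.15 and pysam 0.24.0.

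Replicate numbers were checked for pairing by the correlation of deviations from group means. It was 0.086 (LGE with MGE), 0.484 (LGE with CGE) and -0.146 (MGE with CGE) over genes and 0.080, 0.391 and -0.017 over regions. The numbers were not taken as pairs in the main fits. LGE with CGE had the highest values, so for that comparison pairing is not set aside by them, and fits with the replicate block are given in the last section. Over motifs the correlation was 0.379, 0.289 and 0.382, and the blocked fit called 0 motifs in either comparison. Alternatives were DESeq2 1.42.0, its size factors, no filter, the replicate block, ranking after thinning, the top 20% of nuclei, removal of the 5% of nuclei richest in other cell types' genes, an offset for covered length, peaks in shared regions only, leaving out each sample and, chosen after seeing the data, whole merged regions per gene. The scripts were tested on simulated data. Some list genes are not reported here.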

Additional observations from a re-analysis of the deposited data

Results flagged for a closer look

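Each result here is the log2 difference of members minus other nuclei in LGE, less the same difference in another eminence, that passed edgeR's test of that difference (adjusted p of 0.05 or less) and met the conditions for named genes. Against MGE, 269 positive and 360 negative genes qualified. The 5 with the largest positive values were Iqub (1.68), Csnka2ip (1.58), Crp (1.43), Cmah (1.36) and Atp10b (1.33). Iqub, a gene of sperm flagella, had 12.3 and 13.8 CPM in LGE members and 12.2 and 9.32 in other LGE nuclei, against 4.55 and 7.71 and 13.1 and 19.1 in MGE (adjusted p = 2.61e-06). Over whole merged regions Cmah and Atp10b still passed (adjusted p 0.002 and 0.0006), Iqub, Csnka2ip and Crp did not (0.106, 0.501 and 0.76), and the sign of Crp turned.

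The 5 with the largest negative values were Unc93a2 (-3.41), Adad1 (-3.22), Gm49630 (-2.81), Slc22a8 (-2.53) and Fap (-1.90). Unc93a2 rested on 0.145 and 0 CPM in LGE members and 2.93 and 2.95 in other LGE nuclei. Over merged regions adjusted p was 0.0447, 0.0072, 0.0447, 0.309 and 0.0142 in the same order.

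Against CGE, Sorcs1, a sorting receptor gene, was the only positive gene that qualified (0.38, adjusted p = 0.0214), with 178 and 224 CPM in LGE members and 145 and 183 in other LGE nuclei, against 160 and 148 and 161 and 165 in CGE. The negative ones with the largest values were Znrf4 (-0.63), Zfp503 (-0.53), Dnajb8 (-0.51), Igdcc3 (-0.50) and Iqca (-0.47). Igdcc3, an adhesion receptor gene of early neural progenitors, had 208 and 224 CPM in LGE members and 206 and 217 in other LGE nuclei, and in CGE 281 and 364 against 204 and 239 (adjusted p = 0.00176). Over merged regions Zfp503 and Igdcc3 were the only 2 genes that passed (each 0.0332). Znrf4 and Sorcs1 did not pass (0.0681 and 0.0695), nor did Dnajb8 and Iqca.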

How the results depend on the processing

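In place of the 93 genes called against MGE there were 651 by DESeq2, 27 with the replicate block, 53 after ranking thinned nuclei, 2 with the covered-length offset, 181 over whole merged regions, and 15 to 264 with 1 sample left out. The 3 against CGE became 77 by DESeq2, 0 with the offset, 0 over merged regions and 4 to 15 with 1 sample left out. In place of the 8014 regions against MGE, 5055 were called with the offset and 4566 to 8408 with 1 sample left out. The 37 against CGE became 9 with DESeq2 size factors, 1559 by DESeq2, 0 with the block, 89 after thinned ranking, 134 for the top 20%, 94 without nuclei rich in other cell types' genes, 450 with the offset and 0 to 308 with 1 sample left out. DESeq2 called 11 and 16 motifs in place of 0. The 795 differences of differences against MGE became 1382 with the block, 399 after thinned ranking, 499 over merged regions and 121 to 907 with 1 sample left out, and the 17 against CGE became 48 by DESeq2, 269 with the block, 1 after thinned ranking, 47 for the top 20%, 4 with the offset, 2 over merged regions and 0 to 57 with 1 sample left out. The sign turned at Crp (-0.4185 over peaks in shared regions and -0.417 over merged regions) and at Lhx6 (0.4805 with the offset). Higher calls were 33.3% of genes and 50.8% over merged regions against MGE, and 35.1% of regions and 92% with the offset against CGE. Of the 93 genes 93 were also called by DESeq2, 67 over merged regions and 52 after thinned ranking, and of the 8014 regions 4195 with the offset. The offset moved the median of all genes to 0.18 against MGE and 0.28 against CGE. Among named genes, regions and motifs the block kept the side of the threshold for 55 and ended the call for 13, the offset kept 42 and ended 19, and merged regions kept 39, ended 8 and added 4. The causes were not tested. A sample left alone in its group was assumed to vary like the other groups. Of the named regions against MGE, those at Alcam and Eef2kmt had the fewest CPM and the largest SE (0.54 and 0.55), and what depth contributed was not tested.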
